A study of Mus musculus with 2 samples.

Results

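The regions described here are the DNase I-sensitive peaks and hotspots that lie outside the ordinary mouse chromosomes, on the mitochondrial sequence (chrM) or on sequences that the assembly could not place. They were taken by sequence name alone, as every interval not on chromosomes 1 to 19, X or Y. The rule used no signal value, although earlier results of these data were known when the members were chosen. In replicate 1 they were 215 of 228440 peaks (0.0941%) and 180 of 206634 hotspots, and in replicate 2 they were 221 of 122838 peaks (0.18%) and 199 of 111593 hotspots. The mitochondrial sequence held 31 of these peaks in replicate 1 and 30 in replicate 2, and the unplaced sequences held 184 and 191.

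The study mapped open chromatin by DNase-seq, in which nuclei are cut with the nuclease DNase I and the ends of the released fragments are sequenced. It has 1 group of 2 libraries, with no treatment in the labels, both from midbrain of newborn mice of the strain B6NCrl at an age of 0 days, with males and females pooled. The labels call the libraries biological replicates 1 and 2 and give each its own biosample, but trace both to the same donor entry, and the protocol they cite is written for nuclei of cultured cells and names crosslinking. Read totals are not given, so the depth is unknown, and with 2 libraries of a single group no test was made. Differences between the libraries may in part be technical. The labelled tissue was checked on a list of markers: 8 of 8 midbrain and neuron genes had a peak within 500 bp of a transcription start site in each library, and 0 of 4 genes of liver and heart did. Over all protein-coding genes of chromosomes 1 to 19, X and Y the share was 68.9% in replicate 1 and 62.6% in replicate 2. A peak at a start was thus common, and the check is a limited one.

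Mitochondrial DNA is a small circular genome present in many copies per cell. It is packed by the protein TFAM rather than by nucleosomes, and it encodes subunits of the respiratory chain together with the rRNAs and tRNAs that translate them. Its control region carries the promoters, the origin of heavy-strand replication and the conserved sequence blocks where the primer of that replication is made. Fragments of mitochondrial DNA have also been copied into the nuclear chromosomes over evolution. Unplaced sequences are contigs of the assembly whose chromosome, or whose place on it, is not known, and many hold repeated or duplicated DNA.

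Sequences that carry the results are given first, in the mm10 assembly and on the forward strand unless stated, from the RefSeq copy of that assembly. The control region peak of replicate 1 lay at chrM:16076-16225, and capitals mark the conserved sequence blocks CSB2 and CSB3, in that order.
control region peak: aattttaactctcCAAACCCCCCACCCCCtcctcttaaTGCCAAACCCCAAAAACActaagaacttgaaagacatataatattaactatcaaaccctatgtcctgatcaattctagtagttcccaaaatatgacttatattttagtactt
The strongest unplaced region lay at chrUn_JH584304:59696-59845 with the same interval in both libraries, and capitals mark its 10 CpG dinucleotides.
unplaced top shared: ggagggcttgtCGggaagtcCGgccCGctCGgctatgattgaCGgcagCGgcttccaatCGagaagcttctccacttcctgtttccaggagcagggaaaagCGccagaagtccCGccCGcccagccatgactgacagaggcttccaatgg
The last set was chosen after the values were seen, because it shows where mitochondrial hotspots stopped. At chrM:1674-1790, inside mt-Rnr2, the 117 bases also stand without a difference on the reverse strand of chr10:96077616-96077732, and capitals mark the 46 bases outside the hotspots of both libraries.
chrM gap in mt-Rnr2: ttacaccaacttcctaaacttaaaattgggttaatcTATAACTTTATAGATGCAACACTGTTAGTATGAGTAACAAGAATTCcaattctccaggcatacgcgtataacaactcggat
The only substitution between the mitochondrial sequence and its longest nuclear copy, T9461C counted on the mitochondrial sequence, is the capital in the next pair, from chrM:9431-9491 and from the reverse strand of chr1:24613087-24613147.
chrM around a difference: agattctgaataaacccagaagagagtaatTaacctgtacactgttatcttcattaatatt
nuclear copy around the difference: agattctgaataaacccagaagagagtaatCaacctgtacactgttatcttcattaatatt

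The mitochondrial peaks carried the highest values of each library. Each peak is 150 bp wide and has a signal that the authors deposited as a whole number; what it counts is unknown here. The 31 mitochondrial peaks of replicate 1 had signals from 119 to 150 with a median of 149, against a median of 44 for the peaks on chromosomes 1 to 19, X and Y. In replicate 2 the 30 mitochondrial peaks ranged from 91 to 140 with a median of 124.5, against 18 on those chromosomes. In replicate 1, 14 mitochondrial peaks stood at 150, the highest value in the list, and the highest value on the ordinary chromosomes was 149. In replicate 2, 14 mitochondrial peaks stood above the highest value of the ordinary chromosomes, 125. The classes overlapped more in replicate 1, where 7652 ordinary peaks (3.35%) reached the lowest mitochondrial value, than in replicate 2, where 42 (0.0343%) did. No signal exceeded 150, which is also the peak width in bases, so the order of the 14 peaks at that value cannot be read. Mitochondrial DNA has many copies per cell, and more copies cannot be told apart from more cutting per copy in these lists.

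**Figure D1:**
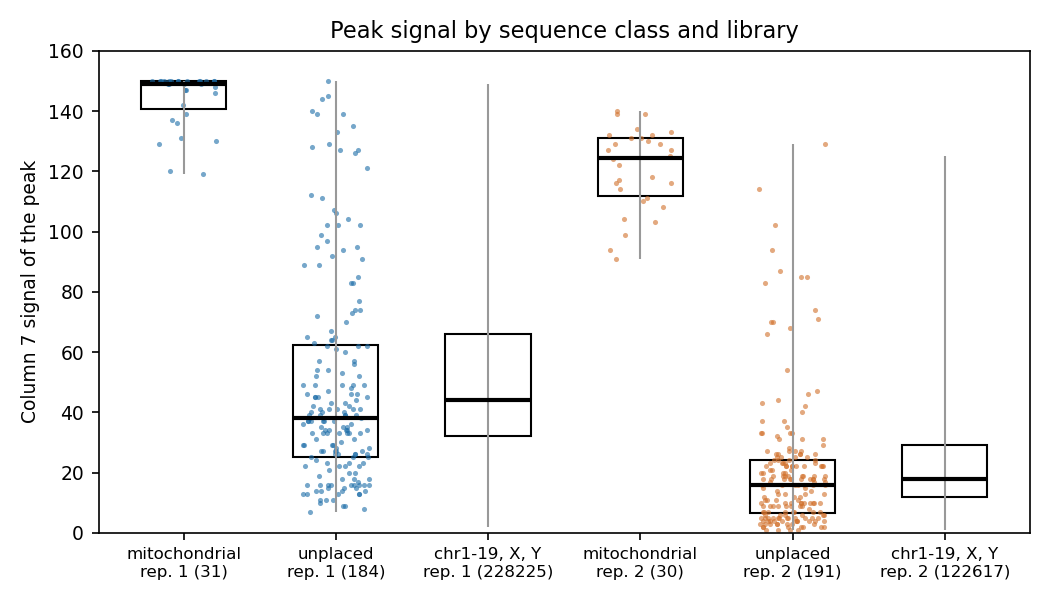
Signal per peak (column 7 of the peak lists, the authors' unit) by sequence class in each library, with points for single peaks, boxes from the lower to the upper quartile, thick lines at the medians and thin lines from the lowest to the highest value (the ordinary chromosomes have no points). The mitochondrial medians, 149 and 124.5, lie above those of both other classes in each library.

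The unplaced peaks were close to ordinary peaks in signal. Their median was 38 in replicate 1, with a range of 7 to 150, and 16 in replicate 2, with a range of 1 to 129. The median stood above 37.7% of ordinary peaks in replicate 1 and above 40.9% in replicate 2. In each library 1 unplaced peak exceeded every ordinary peak, and both were the chrUn_JH584304 peak printed above, at 150 and 129. Hotspots carry the −log10 of a q value deposited by the authors, in which 100 is the strongest class. All 17 mitochondrial hotspots had 100 in each library. Among unplaced hotspots 42.9% had it in replicate 1 and 25.3% in replicate 2, and on the ordinary chromosomes 36.6% and 26.5%.

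Peaks covered 26.9% of the 16299 bases of the mitochondrial sequence in replicate 1 and 26.2% in replicate 2, whereas they covered 1.24% and 0.649% of chromosomes 1 to 19, X and Y. Hotspots covered 63.4% of the mitochondrial sequence in both libraries. Neighbouring peaks started a median of 350 bp apart in replicate 1 and 360 bp in replicate 2. By the midpoints of the peaks, 21 of 31 fell in protein-coding genes in replicate 1 and 21 of 30 in replicate 2, which is 67.7% and 70% beside the 69.6% of the molecule that these genes occupy. The rRNA genes held 6 midpoints in each library (19.4% and 20%) on 15.6% of the molecule. The tRNA genes held 3 and 2 on 9.14%, and the control region held 1 and 1 on 5.38%. Of the hotspot bases, protein-coding genes took 63.2%, rRNA genes 24.1%, tRNA genes 8.14% and the control region 4.47% in each library. The rRNA share of midpoints was thus above its share of the molecule but below its share of hotspot bases. With few midpoints per class, no share was tested against length or against hotspot bases.

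The rRNA genes held peaks of high signal, and hotspots covered 100% of mt-Rnr1 and 97.1% of mt-Rnr2. The small rRNA gene mt-Rnr1 had 3 peaks in each library, with signals of 149 to 150 in replicate 1 and 122 to 132 in replicate 2, and peaks covered 47.1% and 44.9% of it. The large rRNA gene mt-Rnr2 also had 3 in each, all at 150 in replicate 1 and from 132 to 140 in replicate 2, on 28.4% of its bases in both. Its peaks included the highest of replicate 2, at 140, and another at 139, a value that a peak of mt-Nd1 shared. Every rRNA peak thus lay within 1 unit of the top value in replicate 1, and the lowest of them in replicate 2 was 122.

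The protein-coding genes split into a group with peaks in both libraries and a group with none in either. With peaks were 7 of 13, namely mt-Nd1, mt-Nd2, mt-Nd4, mt-Nd5 and mt-Nd6, which encode subunits of complex I, mt-Co1, the catalytic subunit of complex IV, and mt-Cytb, the cytochrome b of complex III. The peak at chrM:3296-3445 in mt-Nd1 had the same interval in both libraries, with signals of 150 and 139. The peak of mt-Nd4 had 150 in replicate 1 and 134 in replicate 2, at chrM:11156-11305 and chrM:11096-11245. The longest gene, mt-Nd5, had 6 peaks in each library, on 47.7% and 49.3% of its bases, with signals of 130 to 150 and 108 to 129. In mt-Cytb there were 3 peaks of 146 to 150 and 4 peaks of 111 to 131. The lowest mitochondrial signals lay in mt-Co1, whose 5 peaks had 119 to 136 in replicate 1 and 91 to 117 in replicate 2. Of those at 150 in replicate 1, the peak at chrM:12236-12385 lay in mt-Nd5, that at chrM:13596-13745 in mt-Nd6, on the opposite strand to the other protein-coding genes, and those at chrM:14396-14545 and chrM:14936-15085 in mt-Cytb.

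No peak base fell in either library on 19 of the 37 mitochondrial genes. They were 6 protein-coding genes, mt-Co2 and mt-Co3 of complex IV, mt-Atp6 and mt-Atp8 of the ATP synthase, and mt-Nd3 and mt-Nd4l of complex I, and 13 of the 22 tRNA genes, mt-Tf, mt-Tn, mt-Tc, mt-Ty, mt-Ts1, mt-Td, mt-Tk, mt-Tg, mt-Tr, mt-Th, mt-Ts2, mt-Tl2 and mt-Te. Of these, 14 had no hotspot base either, 2 lay partly in a hotspot, and 3 (mt-Tf, mt-Ts2 and mt-Tl2) lay wholly inside one. The other tRNA genes touched a peak in both libraries in 4 cases and in a single library in 5. The latter were mt-Ti and mt-Tq in replicate 1 and mt-Tv, mt-Tl1 and mt-Tm in replicate 2.

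**Figure D2:**
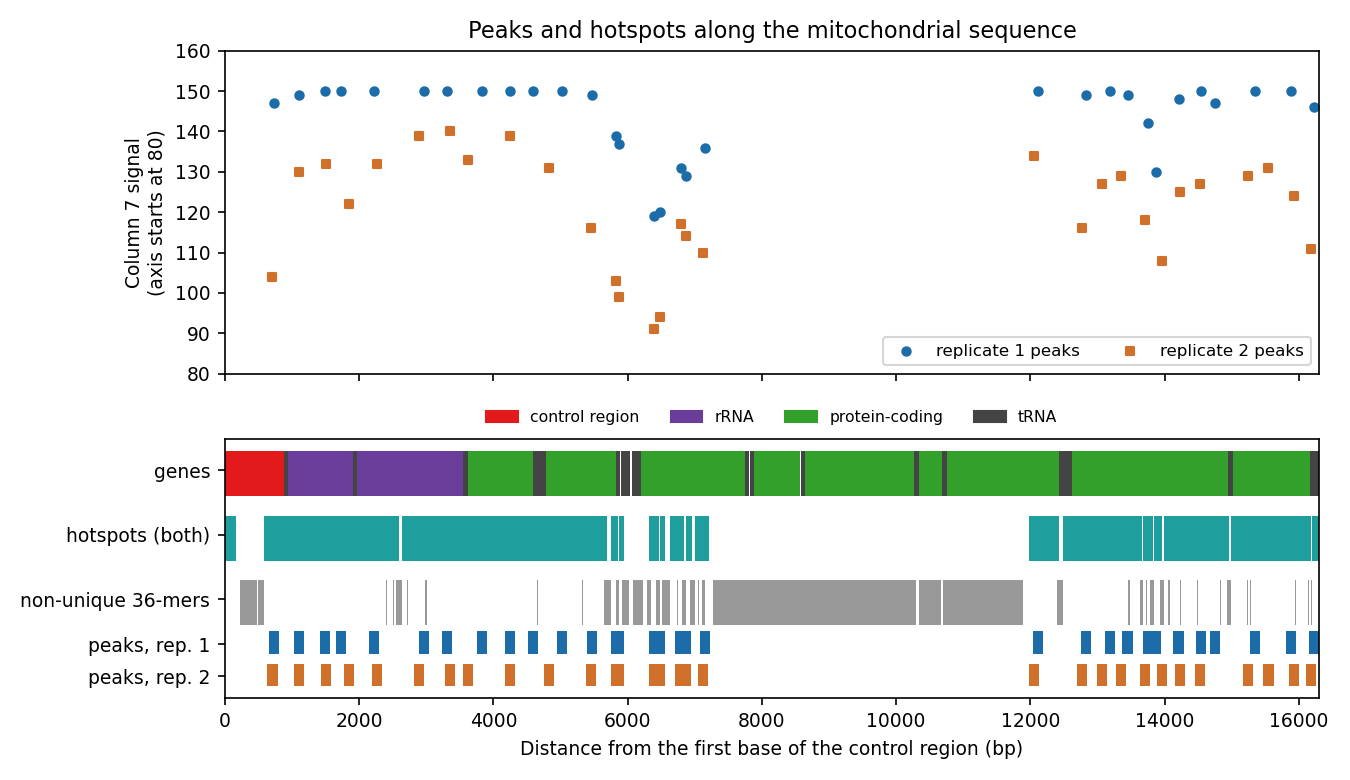
Mitochondrial peaks by signal (upper panel, 1 point per peak at its centre, with an axis that starts at 80) and, below, annotated genes, hotspots, starts of 36-base words found more than once in the assembly and the extents of peaks, along the distance in bp from the first base of the control region on the circular molecule. Hotspots stand at the same intervals in both libraries, and no peak or hotspot lies in the central stretch where non-unique words fill the track.

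The 17 mitochondrial hotspots had the same start and end in both libraries, all 17 of 17 (95% Wilson interval 81.6 to 100%). That interval treats the 17 as independent, which neighbours on a single molecule are not, so the count is a description. On chromosomes 1 to 19, X and Y, 0.248% of replicate 1 hotspots and 0.46% of replicate 2 hotspots had an identical partner. The longest stretch without a hotspot ran from chrM:6330-11107, 4778 bases or 29.3% of the sequence, and wholly contained 11 genes. The next were chrM:15590-16004 in the control region, 415 bases, and chrM:5072-5445, 374 bases from mt-Ta to mt-Co1. The last includes the origin of light-strand replication at chrM:5160-5191, which had no peak or hotspot base. In all, 16 gaps of 3 to 4778 bases took up 5969 bases.

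The gaps were set beside the uniqueness of the sequence, as the share of 36-base words that occur once in the assembly on either strand. The length of 36 bases is an assumption, since no source here states the read length. Of 16264 such words in the mitochondrial sequence, 60.9% were unique, and the rest formed 52 runs. The share was 91.8% for words that start in a hotspot and 7.47% for those that start outside. The hotspots have 32 edges that are not an end of the sequence. Of these, 25 fell on the exact base where a run of non-unique words begins or ends, taking a right edge at the last base of the first non-unique word and a left edge at the first unique start. A further 4 lay exactly 100 bp inward of such a base, a rule noticed after the edges were seen, and 3 showed neither. Not every run met a hotspot edge. The runs of 50 words at 6232 to 6281 and of 43 words at 12906 to 12948 lay inside hotspots, as did some shorter runs. In the printed stretch of mt-Rnr2, the hotspot ended at position 1709, the last base of the first word shared with chromosome 10, and the next began at 1756, where words are unique again. Inside 13 of the 16 gaps no unique word started, and these were at most 77 bases long. The 3 longest gaps held some, at 4.75%, 22.2% and 34% of their positions, and the 32 bases of the light-strand origin all started a unique word.

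Non-unique mitochondrial words had copies at 26 nuclear loci on 14 chromosomes. The longest was at chr1:24611535-24616184 on the reverse strand, which matched positions 6394 to 11042 of the mitochondrial sequence with 1 substitution and 1 difference of a single base in length, at 99.98% identity over 4649 aligned bases. It alone held 71.5% of the mitochondrial words that occur elsewhere. Neither library had a peak or a hotspot in this chromosome 1 copy. Within its 4650 bases, 4551 words also occur on the mitochondrial sequence, so this absence cannot be read as closed chromatin. The next, at chr2:22587288-22590534, held 22.4% of them. It carried no peak in replicate 1 and 1 in replicate 2, at chr2:22587356-22587505 with a signal of 5, and 36 mitochondrial words started in that peak. The only other locus with a peak was on chromosome 5, in replicate 2 alone, at chr5:7276776-7276925 with a signal of 4.

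The signal of mitochondrial peaks also followed the share of unique words within them. In replicate 1 the 13 peaks whose words were all unique had signals of 147 to 150, and the other 18 had 119 to 150 with a median of 144. In replicate 2 the 15 fully unique peaks had 104 to 140 with a median of 131, and the other 15 had 91 to 139 with a median of 114. The Spearman correlation between signal and unique share was 0.769 over the 31 peaks of replicate 1 and 0.695 over the 30 of replicate 2. It is given as a description, since some peaks overlap and all share a library. The ranges of both sets overlapped in each library, and at 100% unique the control region peak of replicate 2 had a signal of 104. In mt-Co1, which held the lowest peak of each library (119 and 91), 39.4% of starts were unique, while mt-Rnr1 and mt-Nd1 were at 100%. Over genes, the median unique share was 92.3% for the 18 with a peak base in either library and 4.6% for the 19 without. Of the 14 genes with no hotspot base, 9 had no unique word. Whether uniqueness sets the signal was not tested.

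The control region had a single peak of its own in each library, at the end next to mt-Tf. It was at chrM:16076-16225 with a signal of 147 in replicate 1 and at chrM:16056-16205 with 104 in replicate 2. Both covered CSB2 (chrM:16089-16104) and CSB3 (chrM:16114-16131) whole, and that of replicate 2 also took in 3 bases of CSB1 (chrM:16035-16058). In replicate 1 a peak over mt-Tt and mt-Tp reached 3 bases into the other end of the region, with a signal of 146, and its partner in replicate 2 with 111 stopped short of it. Peaks covered 17.4% of the control region in replicate 1 and 17.1% in replicate 2, against 26.9% and 26.2% of the whole sequence. Hotspots covered 52.7% of it, including ETAS1 and ETAS2, the termination-associated elements at chrM:15451-15509 and chrM:15515-15558, on which no peak fell. Among the mitochondrial peaks of replicate 2 the control region value of 104 ranked low, below the 122 to 140 of the rRNA genes. It still stood above nearly all ordinary peaks of that library. In replicate 1 the value of 147 was near the mitochondrial median of 149.

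Most mitochondrial peaks had a partner in the other library. In replicate 1, 27 of 31 (87.1%, 95% Wilson interval 71.1 to 94.9%) overlapped a replicate 2 peak by at least 1 bp, where 33.5% of ordinary peaks did. In replicate 2, 27 of 30 (90%, 74.4 to 96.5%) overlapped a replicate 1 peak, where 64.6% of ordinary peaks did. The intervals cover counting error only. With at least 50% of each peak covered by the other, 21 peaks qualified in each direction, 67.7% and 70%, where 29.1% and 54.9% of ordinary peaks did. The same interval was found for 8 peaks in each list, 25.8% and 26.7%, beside 8.53% and 15.9% of ordinary peaks. Most of the 8 lay in the stretch chrM:4876-6065, in peaks with 35.3% to 69.3% unique words. Outside it only chrM:156-305 and chrM:3296-3445 coincided. The part of uniqueness in these matches was not tested. All peak starts in both lists fall on the same 20 bp grid, which limits how finely positions can differ. Peaks covered 26.9% and 26.2% of this sequence, and the part of that coverage in the overlap was not tested.

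The 4 replicate 1 peaks without a partner lay at chrM:2876-3025 in mt-Nd1, chrM:3636-3785 over mt-Nd1, mt-Ti and mt-Tq, chrM:4076-4225 in mt-Nd2 and chrM:13796-13945 in mt-Nd6, with signals of 147 to 150. The 3 of replicate 2 lay at chrM:2676-2825 over mt-Tl1 and mt-Nd1 with 133, at chrM:3876-4025 over mt-Tm and mt-Nd2 with 131 and at chrM:14596-14745 in mt-Cytb with 131. These were not low values in either library. All 7 lay inside hotspots that both libraries shared. Merging overlapping peaks gave 30 mitochondrial regions, of which 23 held a peak of each library. Over these 23, the Spearman correlation of the libraries' highest signals was 0.79, as a description, with many replicate 1 values tied at 150. Replicate 1 was higher in all 23, by a ratio of 1.07 to 1.41 with a median of 1.18. The ratio of the medians of all ordinary peaks was 2.44, but that is another measure, over peaks with and without a partner. The ratio over ordinary regions shared by the libraries is not given, so these values cannot be compared directly. The signals were not scaled between libraries. If 150 is the most that the signal can reach, it bounds the ratio for the mitochondrial peaks, which was not tested.

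**Figure D3:**
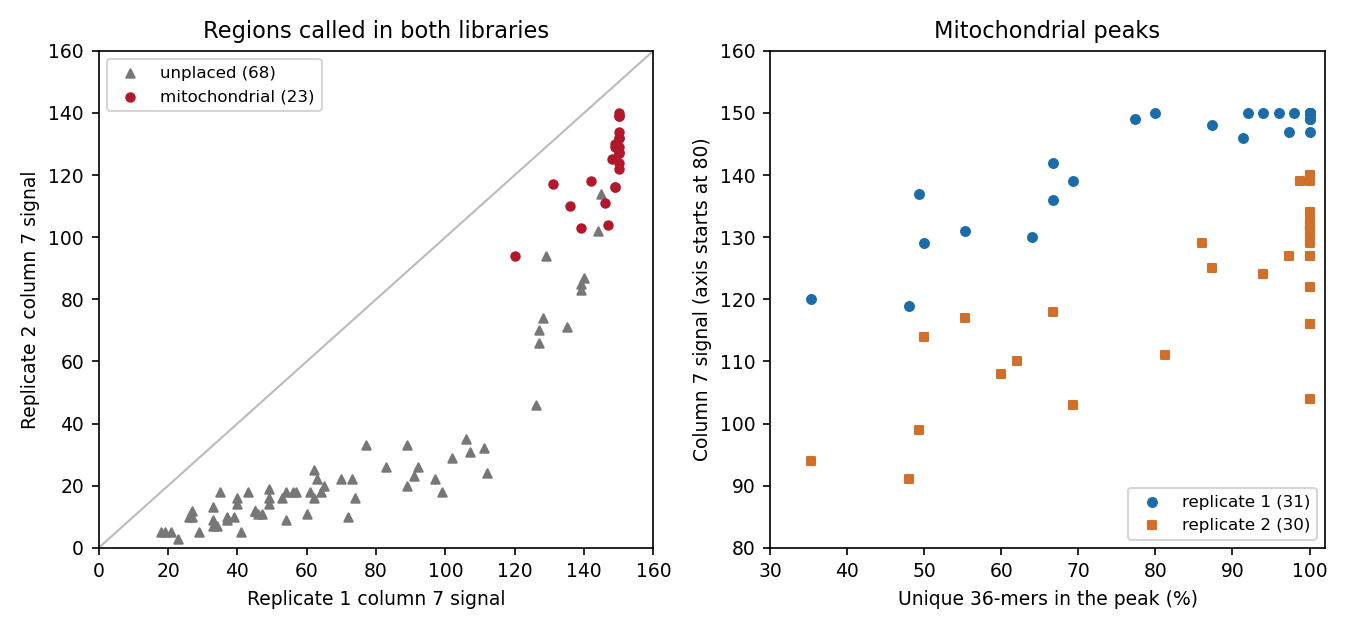
Left, highest signal in replicate 1 against replicate 2 for each region with a peak in both libraries, with the line of equal values; right, signal of each mitochondrial peak against the share of its 36-base words that are unique (axes start at 80 and 30). The 23 mitochondrial and 68 unplaced regions all lie below the line, and the lowest signal of each library, 119 and 91, is at a peak with 48% unique words, although the control region peak of replicate 2 has 104 at 100%.

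The unplaced peaks fell on 29 of the 44 unlocalised and unplaced sequences of the assembly, 22 in replicate 1 and 27 in replicate 2, with 20 in both. In replicate 1 the most peaks were on chrUn_GL456396 with 22, chrUn_GL456389 with 17, chrUn_GL456390 with 16, and chrUn_GL456370 and chrUn_JH584304 with 15 each. In replicate 2 chrUn_JH584304 came first with 66, followed by chrX_GL456233_random with 12, chrUn_GL456392 with 10, and chrUn_GL456389 and chrUn_GL456372 with 8 each. On chrUn_GL456396, first in replicate 1, replicate 2 had 4 peaks. Replicate 1 had more peaks on 17 sequences and replicate 2 on 10, although the list of replicate 2 was the shorter overall. The 7 sequences found only in replicate 2 carried 29 peaks with signals of 1 to 10, and the 2 found only in replicate 1 carried 2 peaks with 16 and 33.

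**Figure D4:**
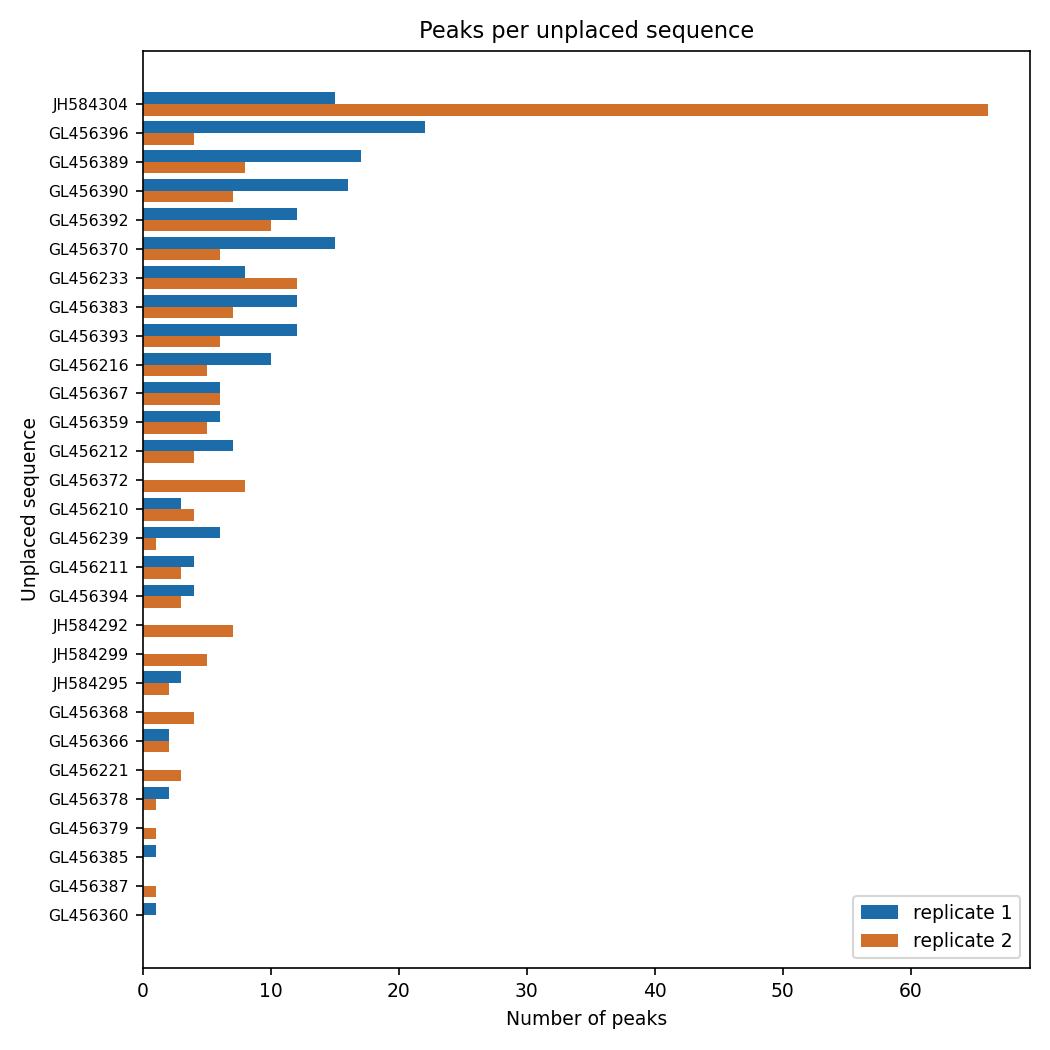
Number of peaks on each of the 29 unplaced sequences with a peak, by library. The bar of JH584304 in replicate 2, 66 peaks, is the longest, beside 15 in replicate 1.

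Of the unplaced peaks, 77 of 184 in replicate 1 (41.8%, 35 to 49.1%) overlapped a peak of replicate 2, where 33.5% of ordinary peaks did. In replicate 2, 81 of 191 (42.4%, 35.6 to 49.5%) overlapped a peak of replicate 1, where 64.6% of ordinary peaks did. The share was thus above that of ordinary peaks in replicate 1 and below it in replicate 2. The sequence chrUn_JH584304 held 8.15% of the unplaced peaks in replicate 1 and 34.6% in replicate 2, and without it, a choice made after its counts were seen, the shares were 37.9% and 52%. The same interval was found for 25 peaks, 13.6% and 13.1%, beside 8.53% and 15.9% of ordinary peaks. Unplaced hotspots overlapped at 43.6% of 163 and 42.3% of 182, where 33.5% and 72% of ordinary hotspots did. Peaks with a partner had a median signal of 62 in replicate 1 against 29 without, and of 18 against 10 in replicate 2. Over the 68 unplaced regions with peaks of both libraries the Spearman correlation of the signals was 0.915, as a description, and replicate 1 was higher in all 68, with a median ratio of 3.32.

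On chrUn_JH584304 the libraries differed in number and level. The 15 peaks of replicate 1 had signals of 83 to 150, although its unplaced peaks elsewhere went down to 7, and the 66 of replicate 2, of which 1 repeats a position in the list, had 10 to 129 with a median of 24. Of the 66, 16 overlapped a replicate 1 peak, with signals of 19 to 129, and 50 did not, with 10 to 47. The highest peak in both libraries was the one printed above, just upstream of the start of AC149090.1, which RefSeq names Pisd-ps3, a pseudogene of phosphatidylserine decarboxylase, and which runs on the reverse strand from chrUn_JH584304:52190-59690. Its observed CpG count was 0.709 of that expected from its base composition, against 0.35 for the whole sequence. Within 1500 bp of that start were 4 peaks of replicate 1 with at least 126 and 6 of replicate 2 with at least 43. More than 15 kb downstream, replicate 1 had 7 peaks with 83 to 112, and replicate 2 had 56 with 10 to 40. Of the 36-base words of the sequence, 25.2% were unique, and the median share within peaks was 85.3% in replicate 1 and 63% in replicate 2. Across the 10 sequences whose letters could be matched to RefSeq, 2 of 50 peaks in replicate 1 and 27 of 111 in replicate 2 had fewer than 50% unique words. Their part in the difference between the libraries was not tested.

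**Figure D5:**
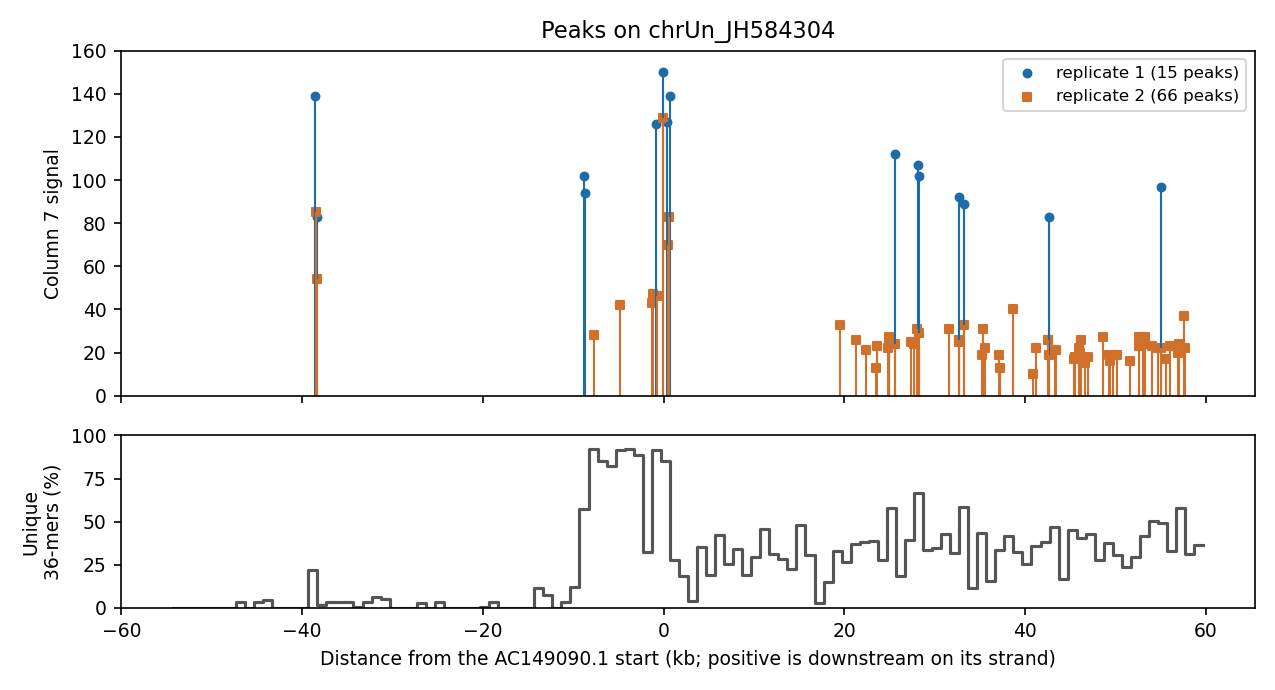
Signal of each peak on chrUn_JH584304 (upper panel) and share of unique 36-base words per 1000 bp (lower panel) by distance in kb from the start of AC149090.1. The 15 peaks of replicate 1 stand at 83 or more, and most of the 66 of replicate 2 form a low series downstream.

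Over all the unplaced sequences with peaks, few genes had a peak at their start. Of 40 protein-coding genes annotated by GENCODE on the sequences with peaks, 5 (12.5%, 5.46 to 26.1%) had a peak within 500 bp of a start, the same 5 in each library. They were Vamp7, Tmlhe, CAAA01118383.1, CAAA01147332.1 and AC149090.1. The last is protein-coding in GENCODE, although its RefSeq name, Pisd-ps3, is that of a pseudogene. On chromosomes 1 to 19, X and Y the share was 68.9% of 21938 genes in replicate 1 and 62.6% in replicate 2. Of the 40, 32 lie on 5 sequences where under 15% of words are unique, and none of the 5 genes does. Those 5 sequences held 14 peaks in replicate 1 with signals up to 26 and 19 in replicate 2 with signals up to 13. The other protein-coding genes were 4 on chrX_GL456233_random and 1 each on chr4_GL456216_random, chr4_JH584292_random, chr4_JH584295_random and chrUn_JH584304. All 5 genes with a start peak were among these, so the low share over the 40 was not seen there. The part of uniqueness was not tested.

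The genes with a start peak were of several kinds. Vamp7, a SNARE protein of vesicle fusion, had a peak at chrX_GL456233_random:39136-39285 in both libraries, with signals of 111 and 32. Tmlhe, the first enzyme of carnitine synthesis, on the same sequence, had signals of 56 at chrX_GL456233_random:159556-159705 and 18 at chrX_GL456233_random:159576-159725. For Spry3, an inhibitor of receptor tyrosine kinase signalling on that sequence, a peak stood near the RefSeq start only. It had 65 at 144 bp in replicate 1 and 25 at 444 bp in replicate 2, and the pair did not overlap. Another replicate 1 peak, beyond 500 bp and with 62, did overlap that replicate 2 peak. Near other RefSeq starts, on chrUn_JH584304, LOC100861749 had signals of 97 and 22 and LOC100861738 had 112 and 24. Within 500 bp of the LOC108168686 start only replicate 2 had a peak, with 26. A replicate 1 peak with 83 overlapped that peak but lay beyond 500 bp. The GENCODE gene CAAA01118383.1 lies on chr4_GL456216_random, and RefSeq names it Dhrsx, a short-chain dehydrogenase/reductase. It had signals of 135 and 68 in peaks within 500 bp of its start that did not overlap each other. The peak with 135 did overlap another replicate 2 peak, with 71, which lay beyond 500 bp. Near the RefSeq start of Dhrsx both libraries had the interval chr4_GL456216_random:13816-13965, with signals of 106 and 35. CAAA01147332.1 on chr4_JH584295_random, which RefSeq names Cd99, a cell surface glycoprotein, had 74 and 16. Replicate 1 was the higher at all of these with a peak in both libraries, as at every unplaced region with peaks of both libraries. A miRNA gene, CR524822.1 on chrUn_GL456239, had 4 peaks within 500 bp in replicate 1, up to 49, and none in replicate 2.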

How the data were processed

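DNase-seq was measured in 2 libraries of newborn mouse midbrain. Per the labels, the assembly is mm10. Not given in the sources used here: aligner, peak caller and read length. The signal of each peak and the −log10 q value of each hotspot were deposited by the authors, per library, and were not scaled between libraries; signals set side by side across libraries are descriptions. Every interval outside chr1 to chr19, X and Y was kept. The 37 mitochondrial genes and the starts on unplaced sequences came from GENCODE M21, and landmarks, sequence and further starts, named as RefSeq, from the RefSeq copy of mm10 (GRCm38.p6). Of 29 unplaced sequences, 10 were paired with RefSeq by at least 2 shared exon boundaries, and the letters of the other 19 were not used here. Each 36-base word was counted in the whole primary assembly on both strands, by a procedure tested on simulated data. Overlap meant at least 1 bp. Shares have 95% Wilson intervals, and percentiles and correlations are descriptions. Genes named are those under the 5 highest peaks of a library (with ties), those with no peak base, the control region, the sequences with the most peaks and genes whose start lies within 500 bp of a peak. The members and lists were chosen with earlier results of these data known. The sequence of 1 mitochondrial region is not reported here. Python 3.11.15, numpy 2.4.6, pandas 2.3.3 and scipy 1.17.1 were used.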

Additional observations from a re-analysis of the deposited data

How the results depend on the processing

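Of 41 recomputed values, 28 stayed within their limit. For counts the limit was 1.5 times, and for coverage and gene class 1 SD over the libraries. For overlap shares and the correlation it was the 95% interval of the reported value. Some of the 28 could not have moved. With 2 libraries, leaving out either always keeps coverage within 1 SD. All mitochondrial peaks lie in the stronger 50% of each list, so that setting repeats their values. With hotspots in place of peaks, mitochondrial intervals numbered 17 per library (30.5 peaks), all overlapped (100% both ways), coverage was 63.4% of the sequence (26.6% with peaks) and 52.7% of the control region (17.3%), and the protein-coding share was 63.2% (68.8%). Under reciprocal overlap of 50%, mitochondrial shares were 67.7% and 70% (29.1% and 54.9% of ordinary peaks). With only the stronger 50% of each list, unplaced peaks numbered 82.5 per library (188 in full), and 55.4% of those in replicate 1 overlapped. With both lists shortened to the same length, unplaced shares were 72.4% in replicate 1 and 30.9% in replicate 2. The share of ordinary peaks is not given for the stronger 50% or for the shortened lists. The unplaced shares under those settings therefore cannot be read as particular to unplaced peaks. Without chrUn_JH584304, an alternative chosen after seeing the data, the replicate 2 share was 52%. The cause of these moves was not tested. Leaving out replicate 1 or 2 gave 30 to 31 mitochondrial and 184 to 191 unplaced peaks, and coverage of 26.2 to 26.9% and 17.1 to 17.4%. No paired analysis was possible because there is a single group. Depth is unknown, so a missing peak does not show absence of cutting.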
